A study of Mus musculus with 24 samples.

Results

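Goblet cells are the mucus-secreting cells of the airway lining, and 9 genes that mark them or supply their mucus were examined in mouse lung RNA, out of 23891 genes in the deposited table. The 9 genes, Clca1, Muc5ac, Muc5b, Spdef, Foxa3, Agr2, Slc26a4, Fcgbp and Tff2, were taken by symbol, and each had 1 row. RNA-Seq was performed on left lung lobes of 24 C57BL/6 mice in 4 groups. Naïve adult mice (20 wk, n = 5) and naïve aged mice (80 wk, n = 5) received saline. Aged mice (80 wk, n = 7) were sensitized and challenged intranasally with house-dust mite extract (HDM, 50 µg per dose), and further aged mice (80 wk, n = 7) received the same HDM together with dexamethasone (Dex), a synthetic glucocorticoid, intraperitoneally at 4 mg/kg every 72 h through the challenge period. Tissue of challenged mice was collected 24 h after HDM ended, and the naïve aged group is called saline below. No HDM-challenged adult mice were analysed here, so that the response to HDM is described in aged lungs alone.

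Airway mucus is a gel of the giant secreted glycoproteins MUC5AC and MUC5B, which are folded with the help of AGR2 in the endoplasmic reticulum and stored in granules. The transcription factors SPDEF and FOXA3 direct the goblet cell program, and in allergic airways the cytokine IL-13 acts through STAT6 to turn airway secretory cells into goblet cells. CLCA1, FCGBP and TFF2 are secreted with the mucins, and SLC26A4 (pendrin) is an anion exchanger that shapes the fluid in which mucus hydrates.

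HDM was followed by large increases of 4 of the 9 genes, Clca1, Slc26a4, Fcgbp and Muc5ac. Muc5b, the most abundant of them in naïve lungs, did not pass the test, nor did Spdef, Agr2 and Tff2, and Foxa3 was below the level for testing. The same 4 genes were above saline in mice that also received Dex. Between HDM + Dex and HDM, no member passed the test. The mean CPM of all 9 genes was higher with Dex, but with ratios of means of only 1.02 for Slc26a4 and 1.16 for Muc5ac. The genes varied together between mice, so that these are not 9 independent results. Clca1 was lower in naïve aged than in naïve adult lungs, but the adult mice were all female, and with sex as a covariate it did not pass.

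All values are CPM (reads on a gene scaled to a fixed library total) as deposited, where a value of 0.0001 stands for no read. The spacing of low values put the libraries at 10.1 to 33.1 M reads. The smallest amount taken as detectable, 3 reads, was 0.0906 to 0.298 CPM depending on the library, which covers counting error only. HDM replicate 3 had the fewest reads and the most genes at the constant (3313). It was the lowest HDM sample for 6 of the 9 genes. HDM + Dex replicate 7 was the lowest sample of its group for all 9. Counts of changed genes are therefore also given without both of these samples. Both were singled out partly by low values of these same genes, so that their removal tends to raise the counts above saline. Higher counts without them are no added support. The share of CPM taken by 7SL RNA, an abundant noncoding RNA, was 25.5 ± 7.36% (SD, n = 7) after HDM and 12.2 ± 3.41% (SD, n = 5) in saline samples (exact permutation test, p = 0.00631, or 0.0210 after adjustment for the 20 tests made on sample measures). All 5 HDM samples with a share above 25% were male and both below it were female, as read from Xist and Ddx3y, so that sex and 7SL share cannot be told apart in that group. For HDM vs. saline the log2 fold changes of all genes had a median of −0.23, and of −0.01 after median-of-ratios rescaling.

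The genes lie on 4 chromosomes of GRCm38, the build that the coordinates of the table match. Muc5ac (chr7:141788972-141819231) and Muc5b (chr7:141839070-141873084) lie in tandem on the plus strand, 19.838 kb apart. Foxa3 (chr7:19013284-19023538, minus strand) and Fcgbp (chr7:28071236-28120862, plus strand) lie elsewhere on chromosome 7. Slc26a4 (chr12:31519827-31559969, minus strand) and Agr2 (chr12:35992907-36004087, plus strand) are on chromosome 12, Spdef (chr17:27714352-27728955, minus strand) and Tff2 (chr17:31141049-31144282, minus strand) on chromosome 17, and Clca1 (chr3:145003817-145032776, minus strand) on chromosome 3. How reads shared between related genes, such as those of the Clca family, were assigned is not given in the sources used here.

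Promoters of 5 of the 9 genes were available from RefSeq (GRCm38.p6). The 250 bases before the start site are printed 5′ to 3′ on the gene strand for Slc26a4 (chr12:31559985-31560234) and Fcgbp (chr7:28070986-28071235), which rose after HDM, and for Spdef (chr17:27728952-27729201), the regulator that did not pass the test. Capitals mark a TATAAA motif on the gene strand.
Slc26a4: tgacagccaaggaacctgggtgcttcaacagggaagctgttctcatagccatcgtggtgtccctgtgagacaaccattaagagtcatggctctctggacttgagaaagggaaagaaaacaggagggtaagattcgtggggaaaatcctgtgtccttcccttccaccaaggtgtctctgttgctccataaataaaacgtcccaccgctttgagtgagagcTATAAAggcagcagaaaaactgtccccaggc
Fcgbp: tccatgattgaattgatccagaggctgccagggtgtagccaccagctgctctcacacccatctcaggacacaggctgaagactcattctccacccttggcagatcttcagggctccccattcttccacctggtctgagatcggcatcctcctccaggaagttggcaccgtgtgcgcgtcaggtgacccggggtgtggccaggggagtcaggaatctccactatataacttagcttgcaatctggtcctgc
Spdef: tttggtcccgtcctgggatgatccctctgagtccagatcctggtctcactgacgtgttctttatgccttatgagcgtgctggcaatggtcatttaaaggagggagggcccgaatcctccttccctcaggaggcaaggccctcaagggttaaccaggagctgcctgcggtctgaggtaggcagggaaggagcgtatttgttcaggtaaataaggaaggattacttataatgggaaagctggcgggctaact
Of the motifs searched in these 250 bases, TATAAA on the gene strand began at −31 in Slc26a4 and at −36 in Foxa3, and it is present in 7.59% of 32851 promoters of the same length. The FOXA core TGTTTAC (3.17% of promoters), the SPDEF core CGGATG (4.90%), the STAT6 palindrome of TTC and GAA separated by 4 bases (5.85%) and the glucocorticoid palindrome ACANNNTGT (5.84%), each sought on both strands, were not matched in any of the 5 promoters. That says only that these letters are not in this window. Guanine and cytosine made up 49.6% of the Slc26a4 promoter, 56.4% of that of Fcgbp and 52.8% of that of Spdef, and the median of all promoters was 52.4%.

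To order the genes by level, CPM was divided by exonic length. In saline samples Muc5b led with 13.8 ± 6.56 CPM per kb (SD, n = 5), followed by Tff2 at 4.21 ± 2.07 and Slc26a4 at 1.28 ± 0.610 CPM per kb. Muc5b was above Tff2, and Tff2 above Slc26a4, in all 5 samples. Muc5ac, Spdef, Fcgbp and Agr2 had 0.429 to 0.365 CPM per kb and could not be ordered, since none was above its neighbor in more than 3 of 5 samples. Clca1 (0.140 ± 0.108 CPM per kb) and Foxa3 (0.0736 ± 0.0551) came last, with Clca1 above Foxa3 in 2 of 5 samples.
After HDM, Clca1 came first at 46.7 ± 38.4 CPM per kb (SD, n = 7) and Slc26a4 second at 34.6 ± 20.9 CPM per kb, but Clca1 was above Slc26a4 in 4 of 7 samples. Muc5b came next at 13.2 ± 9.44 CPM per kb and was below Slc26a4 in 4 of 7 samples. With HDM + Dex, Clca1 reached 120.6 ± 72.4 CPM per kb (SD, n = 7) and was above Slc26a4, at 35.1 ± 18.3, in 6 of 7 samples. Spdef and Foxa3 were the lowest pair in both HDM groups, with Foxa3 last in all 14 samples compared with Spdef.

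**Figure D1:**
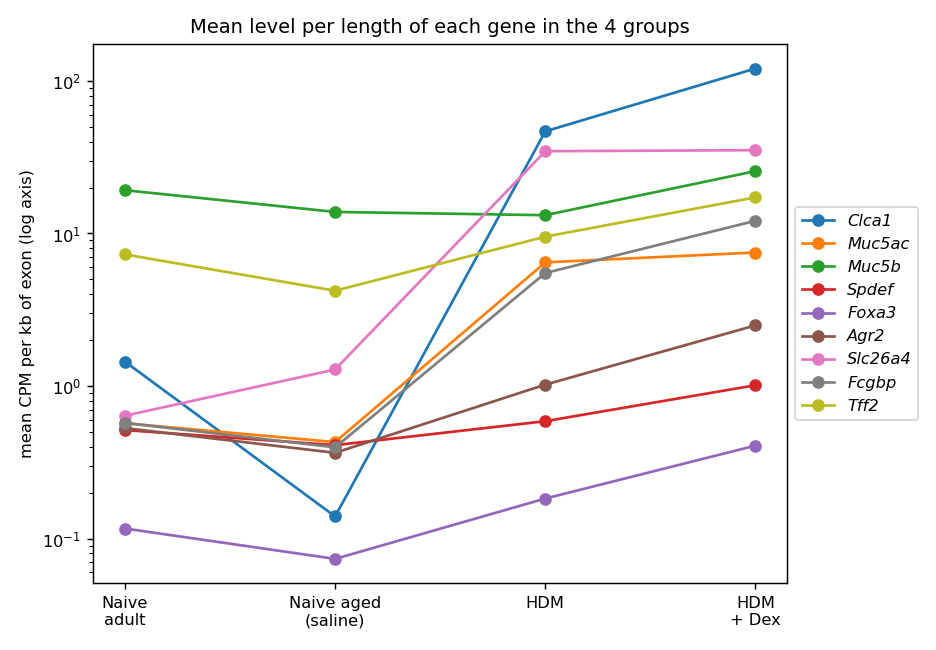
Mean CPM per kb of exon (log axis) of the 9 genes in naïve adult (n = 5), naïve aged (saline, n = 5), HDM (n = 7) and HDM + Dex (n = 7) mice; each line joins the 4 group means of one gene. Clca1 runs from 0.140 in saline to 46.7 after HDM and 120.6 after HDM + Dex, while Muc5b runs from 13.8 to 13.2 and 25.6.

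HDM vs. saline asked how the aged lung responds to the allergen. Of the 9 genes, 8 had a mean of at least 1 CPM and were tested with limma together with 17744 genes in all, and Foxa3 was not. Of these 8, 4 were higher and none was lower at an adjusted p under 0.05, against 4.04% of all genes tested that were higher and 21.2% that were lower. The median log2 fold change was 1.90 for the 8 genes and −0.23 for all genes. After median-of-ratios rescaling 4 of the genes were higher and none was lower, against 10.9% of all genes higher and 11.6% lower. In RNA of whole lobes, fewer or more goblet cells and less or more RNA per goblet cell cannot be told apart. Without HDM replicate 3 and HDM + Dex replicate 7, 5 genes were higher, the fifth being Tff2, against 3.49% of all genes higher and 16.2% lower. With the 7SL share as a covariate 2 were higher, Clca1 and Slc26a4, against 6.61% of all genes higher and 2.25% lower. With that covariate Muc5ac had an estimate of 3.04 (limma adjusted p = 0.0576).

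The regulators were low in every group. Spdef had between 0.494 and 1.40 CPM in the 5 saline samples, and after HDM the lowest, median and highest values were 0.268, 1.06 and 3.50 CPM. The HDM samples thus lay on both sides of the saline samples, with a log2 fold change of 0.18 (SE 0.28; limma adjusted p = 0.663). Foxa3 had under 3 reads in 3 of the 5 saline and 3 of the 7 HDM samples. Its mean was 0.150 ± 0.112 CPM in saline, against 0.373 ± 0.413 CPM after HDM (SD, n = 5 and 7), and a difference was not detectable at this depth (exact permutation test, p = 0.284).

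The gel-forming mucins differed from each other. Muc5ac, the mucin associated with allergic airways, had 2.90, 3.36, 4.45, 2.92 and 9.45 CPM in saline samples. After HDM its lowest, median and highest values were 3.88, 37.7 and 189.9 CPM, and 6 of the 7 samples exceeded every saline sample, the exception being replicate 3. The log2 fold change of Muc5ac was 2.95 (SE 0.74; limma adjusted p = 0.00685), and the ratio of group means was 15.1. Exact permutation tests of Muc5ac, unadjusted, gave p = 0.0518 for the means, 0.00884 on the log2 scale and 0.0101 by ranks.
Muc5b, the mucin of the resting airway that club cells also make, had 124, 124, 280.3, 166 and 341 CPM in saline samples. After HDM it had 21.9 CPM at the lowest, 164 at the median and 465 at the highest. Its HDM samples spanned the whole range of the saline samples, and the log2 fold change was −0.37 (SE 0.49; adjusted p = 0.594). Without HDM replicate 3 the estimate was 0.07, so that no direction is given for Muc5b.

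Expressed per kb, Muc5ac made up 3.14, 3.63, 2.16, 2.38 and 3.72% of both gel-forming mucins in the saline samples. After HDM the share was 11.8% at the lowest, 36.3% at the median and 43.8% at the highest, and every HDM sample lay above every saline sample (exact permutation test of the means, p = 0.00505; adjusted p = 0.0210). The mean was 28.7 ± 13.1% (SD, n = 7) and 3.01 ± 0.710% (SD, n = 5). HDM replicate 3, with 1.82 CPM per kb of both mucins together, still had a Muc5ac share of 19.8%. The sum of both mucins was 14.3 ± 6.79 CPM per kb in saline and 19.6 ± 15.4 after HDM, with overlapping samples. The share, unlike CPM of one gene, does not depend on the scaling of a library. It was chosen after the values of both genes were seen.

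**Figure D2:**
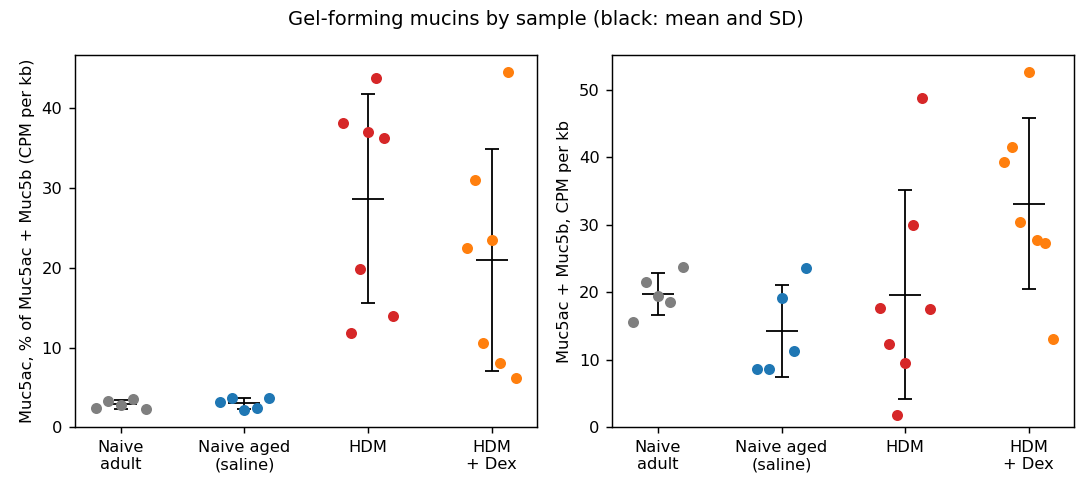
Muc5ac as a percentage of Muc5ac plus Muc5b (left) and their sum (right), both from CPM per kb of exon, in each sample of the 4 groups; points are samples and black marks are the mean and SD. The share is 2.16 to 3.72% in saline samples, 11.8 to 43.8% after HDM and 6.22 to 44.6% after HDM + Dex, while the sums overlap.

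Agr2, the protein disulfide isomerase that mucin folding requires, had 0.201 to 0.677 CPM in saline samples. After HDM it was at the constant in replicate 3 and otherwise had 0.536 to 3.00 CPM, with 5 of 7 samples above every saline sample. The log2 fold change of 0.52 (SE 0.41) did not pass (limma adjusted p = 0.358).

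Among the secreted partners of the mucins, Clca1 moved furthest. Clca1, a metalloprotease of the mucus gel, had 0.671, 0.210, 1.16, 0.151 and 0.445 CPM in saline samples, each worth at least 3 reads. After HDM it had 267, 105, 12.8, 133, 315, 379 and 22.5 CPM. Every HDM sample was above every saline sample, and the log2 fold change was 6.15 (SE 0.77; limma adjusted p = 8.88e-05). The log2(CPM + 1) scale understates this change, for the ratio of group means was 334.5.
Fcgbp, a large mucin-like protein bound into the gel, had 1.16 to 6.58 CPM in saline samples and 4.86, 40.8 and 148 CPM at the lowest, median and highest after HDM. Only HDM replicate 7, a female with a low 7SL share, overlapped the saline samples. The log2 fold change was 3.06 (SE 0.68; adjusted p = 0.00323), but 2.09 (adjusted p = 0.115) with the 7SL share as a covariate.
Tff2, a trefoil peptide that stabilizes mucus, had 3.07, 1.05, 2.32, 1.71 and 4.16 CPM in saline samples and 1.29, 6.42 and 8.15 CPM at the lowest, median and highest after HDM. The HDM samples other than replicates 3 and 4 exceeded every saline sample, and the log2 fold change of 0.85 (SE 0.41) did not pass (adjusted p = 0.125). Exact permutation tests of Tff2, unadjusted, gave p = 0.0417 for the means, 0.0606 on the log2 scale and 0.0732 by ranks.

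Slc26a4, the only transporter of the set, had 2.44, 3.64, 6.67, 5.08 and 2.13 CPM in saline samples. After HDM it had 101, 28.9, 161, 150.3, 199.98, 75.1 and 37.2 CPM. All 7 were above the saline samples, and the log2 fold change was 4.24 (SE 0.46; limma adjusted p = 2.83e-05) with a ratio of means of 27.0. HDM replicate 3, lowest for 6 of the genes, had the second highest Slc26a4. Slc26a4 and Clca1 were the 2 of 8 members in which the HDM and saline samples did not overlap, against 1.03% of all genes that were higher without overlap and 7.69% that were lower.
With the 7SL share held below 25%, where only HDM replicates 6 and 7 remained, Clca1 had 22.5 and 379 CPM, Slc26a4 37.2 and 75.1 CPM, and Muc5ac 26.2 and 189.9 CPM, all above the 5 saline samples. The exact permutation test of the means gave p = 0.0476 for each, the smallest that 2 samples against 5 allow. Spdef, Agr2 and Tff2, which did not pass with limma, reached the same value (exact permutation test, p = 0.0476). The split thus did not set the called genes apart. Muc5b (exact permutation test, p = 0.286) and Foxa3 (exact permutation test, p = 0.143) did not reach it. Fcgbp had 4.86 and 87.2 CPM, the lower of them within the saline range (exact permutation test, p = 0.143).

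**Figure D3:**
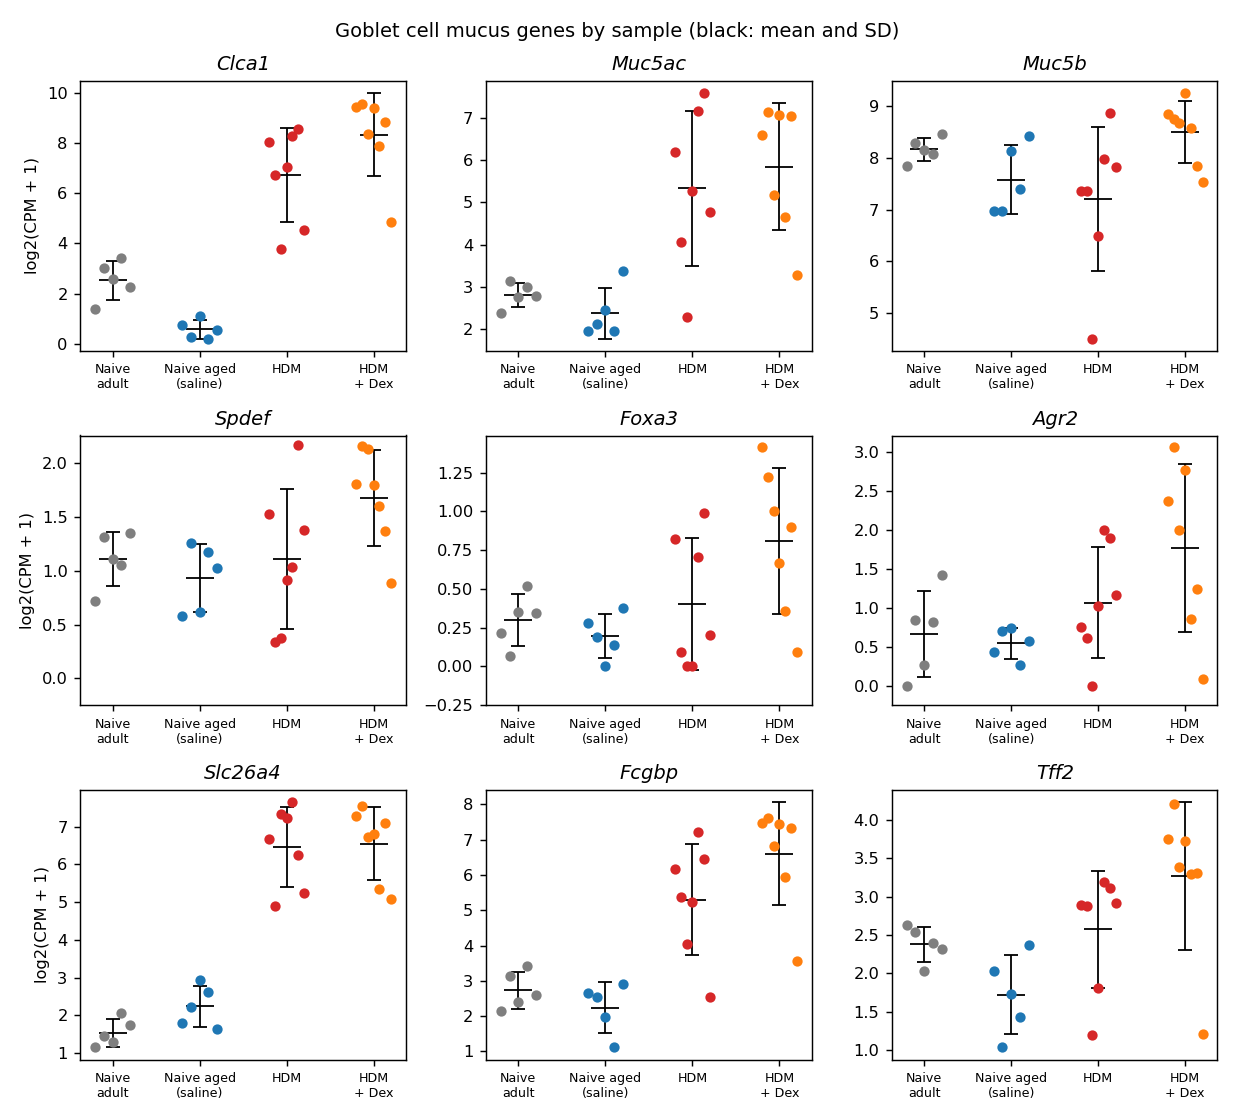
log2(CPM + 1) of each of the 9 genes in every sample (points) of the naïve adult, naïve aged (saline), HDM and HDM + Dex groups; black marks are the mean and SD, and each panel has its own axis. Clca1 and Slc26a4 of the HDM samples are separate from saline, Muc5b is spread across the saline range, and HDM + Dex replicate 7 is the lowest point of its group in all 9 panels.

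HDM + Dex vs. HDM asked whether the steroid moved these genes. None of the 8 genes tested passed with limma, against 0.750% of all genes that were higher and 0.214% that were lower. Of the 8, 4 had an unadjusted p under 0.05, namely Muc5b, Clca1, Spdef and Fcgbp, against 13.5% of all genes in either direction. All 8 estimates were positive, against 56.2% of all genes, with a median of 0.70 against 0.03. The genes varied together between mice and share their libraries, so that the 8 signs are not 8 independent events. With the large airway score, described further on, as a covariate the median of the 8 genes was 0.01. Agr2, Muc5ac, Muc5b and Tff2 then had negative estimates. Without HDM replicate 3 and HDM + Dex replicate 7, again none passed. The background itself rested on single samples, for the 171 genes called in all became 10 without both of these, 2 without HDM replicate 5 and 544 without HDM replicate 2. In no member were the groups free of overlap, against 0.147% of all genes that were higher without overlap and 0.0789% that were lower. The comparison uses the HDM samples that enter HDM vs. saline.
Clca1 had 696, 764, 331, 677, 236, 457 and 28.1 CPM with HDM + Dex. Of these, 4 samples exceeded every HDM sample, and replicate 7 was above HDM replicates 3 and 7 alone. The log2 difference was 1.62 (95% interval 0.16 to 3.07; unadjusted p = 0.0309; adjusted p = 0.298), and the exact permutation test gave p = 0.0402 for the means, 0.118 on the log2 scale and 0.0530 by ranks. Where the 7SL share exceeded 25%, Clca1 was 331 to 764 CPM in 4 HDM + Dex samples and 12.8 to 315 CPM in 5 HDM samples, with no overlap (exact permutation test of the means, p = 0.00794, the smallest that 4 samples against 5 allow, and p = 0.0317 on the log2 scale). Below 25%, 3 HDM + Dex samples had 28.1 to 677 CPM and 2 HDM samples 22.5 and 379 CPM. An exact test cannot go below 0.1 there. Above 25%, Muc5b, Spdef, Foxa3, Agr2, Fcgbp and Tff2 were also higher with Dex (exact permutation tests, unadjusted p from 0.0159 to 0.0317). Muc5ac (exact permutation test, p = 0.238) and Slc26a4 (exact permutation test, p = 0.690) did not pass. The difference above 25% was thus not particular to Clca1. How many of all genes differed or did not overlap above 25% was not counted, so that no result about these genes as a set is drawn from it. The 5 HDM mice above 25% were all male, and the 4 HDM + Dex mice were 3 males and 1 female. HDM + Dex replicate 7 had a share below 25%.
Muc5b had 183 CPM at the lowest, 407 at the median and 603 at the highest with HDM + Dex, with 1 sample above every HDM sample. The log2 difference of Muc5b was 1.29 (95% interval 0.36 to 2.22; unadjusted p = 0.00894; adjusted p = 0.174), and the exact permutation test gave p = 0.0367 for the means, 0.0315 on the log2 scale and 0.0530 by ranks. Fcgbp, at 10.7, 161 and 196 CPM, differed by 1.30 (0.01 to 2.59; adjusted p = 0.363), and Spdef, at 0.853, 2.47 and 3.49 CPM, by 0.57 (0.05 to 1.10; adjusted p = 0.308). Intervals of these 4 genes lay above 0 before adjustment for the number of genes tested.
For Agr2 the lowest, median and highest values with HDM + Dex were 0.0657, 3.01 and 7.33 CPM, and the log2 difference was 0.70 (−0.08 to 1.48; adjusted p = 0.433). Foxa3 had 0.0657, 0.862 and 1.67 CPM (exact permutation test against HDM, p = 0.108). Both genes overlapped the HDM samples, and their tests did not pass.
Tff2 had 1.31, 9.41 and 17.5 CPM and a difference of 0.69 (−0.08 to 1.47; adjusted p = 0.439). All HDM + Dex samples of Tff2 but replicate 7 were above every HDM sample. The exact permutation test gave p = 0.0501 for the means and p = 0.0175 for the ranks, both unadjusted.
Muc5ac and Slc26a4 lay closest to their HDM levels. With HDM + Dex, Slc26a4 had 33.0, 110.8 and 185 CPM and a log2 difference of 0.08 (−0.79 to 0.96; adjusted p = 0.960). Muc5ac had 8.72, 94.8 and 138 CPM and a log2 difference of 0.51 (−0.89 to 1.91; adjusted p = 0.818). With the large airway score described further on as a covariate, the estimate for Muc5ac was −1.12 (adjusted p = 0.884) and for Slc26a4 0.33 (adjusted p = 0.934). The Muc5ac share of both mucins was 20.9 ± 13.9% (SD, n = 7) with HDM + Dex and 28.7 ± 13.1% with HDM, which did not differ beyond the spread of the samples (exact permutation test, p = 0.296; adjusted p = 0.348).

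HDM + Dex vs. saline, which shares its saline samples with HDM vs. saline, had 4 of 8 genes higher and none lower, against 0.445% of all genes that were higher and 1.44% that were lower. Clca1 was higher by 7.77 on the log2 scale (SE 0.77; limma adjusted p = 1.43e-05), Fcgbp by 4.36 (adjusted p = 0.00246), Slc26a4 by 4.32 (adjusted p = 2.01e-05) and Muc5ac by 3.47 (adjusted p = 0.0223). Clca1, Slc26a4 and Fcgbp, 3 of 8, did not overlap saline, against 0.524% of all genes that were higher and 1.87% that were lower without overlap.
Tff2 (1.55, adjusted p = 0.0521), Agr2 (1.22, adjusted p = 0.116), Muc5b (0.91, adjusted p = 0.277) and Spdef (0.75, adjusted p = 0.145) did not pass. Tff2 passed, with a count of 5, when only the 2 groups or all 24 samples were fitted, with a pseudocount of 5, a filter at 5 CPM, a replicate block, or sex or the large airway score as a covariate. Without HDM + Dex replicate 7, Tff2 (1.89, adjusted p = 0.00359) and Agr2 (1.503, adjusted p = 0.0267) passed as well. The count was then 6, against 0.727% of all genes higher and 3.62% lower. Without both this sample and HDM replicate 3 it was 7, Spdef being the seventh, against 0.913% of all genes higher and 5.87% lower. HDM + Dex replicate 7 was the lowest of its group for all 9 genes, which by itself favors higher counts without it. Muc5ac lost its call when naïve aged replicate 1, 3 or 4 or HDM + Dex replicate 2 or 6 was left out, which gave 3 genes. With the 7SL share as a covariate 2 genes passed, Clca1 and Slc26a4, against 0.158% of all genes higher and 0.0338% lower. The estimates were then 3.53 for Muc5ac (adjusted p = 0.137) and 3.60 for Fcgbp (adjusted p = 0.0594). The exact permutation test of single means, with no adjustment, gave p-values from 0.00253 for Slc26a4 to 0.0429 for Agr2, and Foxa3 had p = 0.0303 with 30 of 35 sample pairs higher.

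**Figure D4:**
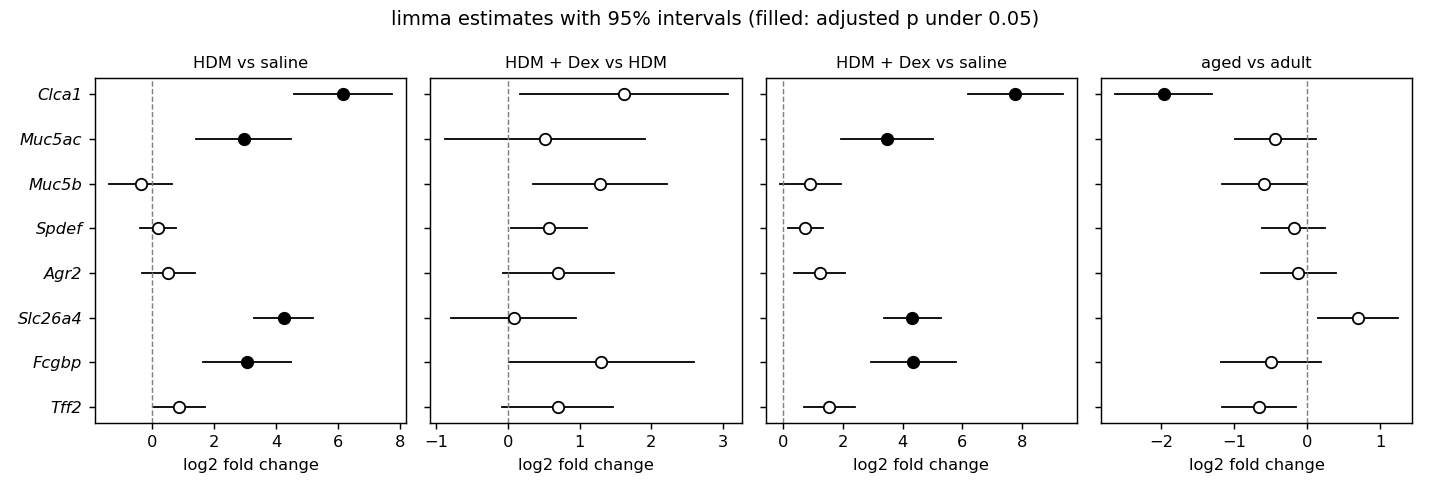
log2 fold change on the log2(CPM + 1) scale with its 95% interval from limma for the 8 genes tested, in HDM vs. saline, HDM + Dex vs. HDM, HDM + Dex vs. saline and aged vs. adult; filled points have an adjusted p under 0.05 and each panel has its own axis. Filled are Clca1, Muc5ac, Slc26a4 and Fcgbp in both comparisons with saline, none in HDM + Dex vs. HDM, and Clca1, at −1.96, in aged vs. adult.

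In naïve mice, aged vs. adult compared groups that differed in age and also in their make-up by sex. Clca1 had 1.61, 7.21, 4.92, 9.79 and 3.76 CPM in adult lungs, all above the 0.151 to 1.16 CPM of aged lungs. The log2 fold change was −1.96 (SE 0.31; limma adjusted p = 0.00522), which made Clca1 the 1 of 8 genes called, against 0.0620% of all genes that were lower and 0.592% that were higher. Clca1 was also the 1 of 8 without overlap, against 0.175% of all genes that were lower and 2.91% that were higher without overlap. All 5 adult mice were female, and 3 of the 5 aged mice were male. The 2 aged females had 0.151 and 1.16 CPM, both below every adult, and with sex as a covariate the estimate was −1.88 (adjusted p = 0.0538). With all 24 samples in the fit, which share 1 estimate of spread with the HDM groups, the adjusted p was 0.346. Clca1 after HDM, at 12.8 CPM or more, was above the adult samples as well as the aged ones.
The other genes did not pass. Adult lungs had 4.26 ± 0.805 CPM of Tff2 and aged lungs 2.46 ± 1.21 CPM (SD, n = 5 each; log2 fold change −0.66, adjusted p = 0.299). For Muc5b the means were 288 and 207 CPM (−0.58, adjusted p = 0.443). Slc26a4 went the other way, from 1.99 ± 0.801 to 3.99 ± 1.90 CPM (0.70, adjusted p = 0.314). The estimates for Muc5ac (−0.43), Fcgbp (−0.49), Spdef (−0.18) and Agr2 (−0.12) were within 2 SE of 0. The median of the 8 genes was −0.46, against 0.19 for all genes, and after rescaling −0.63 against 0.00. Naïve adult replicate 1 had a 7SL share of 42.0% and was the lowest of its group for 7 of the 9 genes. Without it the median of all genes was 0.04, and Clca1 was −2.25 (adjusted p = 0.00123). The Muc5ac share of both mucins was 2.89 ± 0.524% in adult and 3.01 ± 0.710% in aged lungs (exact permutation test, p = 0.786).

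Within a group, mice that were high in one gene were mostly high in the others. Over the 19 aged samples with group means removed from log2(CPM + 1), 35 of 36 pairs of genes had a positive Pearson's r, with a median of 0.669, and 25 had an adjusted p under 0.05 (permutation test, 100000 draws, Benjamini-Hochberg over 36 pairs). By Spearman's rho 20 did. Clca1 and Fcgbp were the closest pair (r = 0.907, rho = 0.898, permutation test, unadjusted p = 6e-05 for r and 4e-05 for rho; adjusted p = 0.00108 and 7.2e-04). Their r was 0.897 without the 2 samples farthest from the median, HDM replicate 3 and HDM + Dex replicate 7, and 0.924 and 0.921 in samples with a 7SL share below and above 25%. Clca1 and Muc5ac followed (r = 0.878, rho = 0.849; adjusted permutation p = 0.00108 for r), with r = 0.753 without those samples.
None of the 8 pairs of Slc26a4 had an adjusted p under 0.05, although after rescaling the pair with Fcgbp did (r = 0.601, adjusted permutation p = 0.0256). As deposited its highest r was 0.529, with Fcgbp, and its r with Muc5b was −0.106, the one negative value. Within the 7 HDM + Dex samples alone, however, its r ran from 0.481 with Muc5b to 0.922 with Foxa3, and within the 7 HDM samples from −0.414 with Tff2 to 0.424 with Fcgbp. These are given as a description, and the difference between the groups was not tested. Leaving out the 2 farthest samples of each pair brought the median r of all pairs from 0.669 to 0.521, so that part of the common variation rested on them. The pairs share libraries and their scaling.

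**Figure D5:**
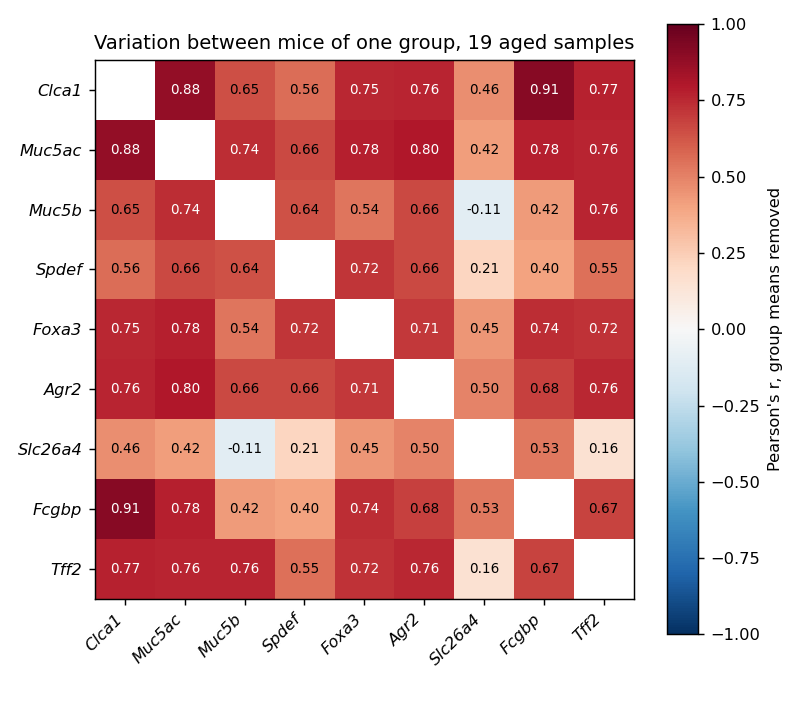
Pearson's r between each pair of the 9 genes over 19 aged samples (5 saline, 7 HDM, 7 HDM + Dex), from log2(CPM + 1) with group means removed; color runs from −1 (blue) to 1 (red). The Clca1 and Fcgbp cell is the highest at 0.91, and the Slc26a4 row is the palest, from −0.11 to 0.53.

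Over all 24 samples, the genes most like the mean of the standardized members were Fer1l6 (r = 0.958), Scin (r = 0.920), Pla2g4c (r = 0.900), Adra2a (r = 0.864) and Itln1 (r = 0.859), given as a description. Fer1l6, of the ferlin family, had a mean of 1.57 CPM in adult, 0.412 in saline, 6.34 after HDM and 20.3 CPM after HDM + Dex. It thus had the order of groups that Clca1 has. Itln1, an intelectin secreted by goblet cells, averaged 0.00999 CPM in saline, 2.51 after HDM and 3.73 CPM after HDM + Dex.

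Other genes of the mucus pathway were counted by list, and the same fit was used. The counts stand beside the 4.04% of all genes higher and 21.2% lower after HDM, and those after rescaling beside 10.9% higher and 11.6% lower. A share of a list near these is no result about the list. Of 9 genes of IL-4 and IL-13 signalling tested, 2 were higher after HDM and none was lower, and after rescaling 4 were higher and none lower. The 2 called as deposited were Socs1, a feedback inhibitor of cytokine signalling (log2 fold change 1.02, adjusted p = 0.0153), and the kinase Jak3 (0.62, adjusted p = 0.0289, and 0.0206 to 0.114 with each sample left out in turn). Of 18 regulators of epithelial fate none was higher and 9 were lower, 5 after rescaling, with Foxa1 (−0.99), Egfr (−0.87) and Hes1 (−0.91) the lowest in p.
Of 17 genes of mucin folding and glycosylation, 2 were higher and 5 lower, and 4 and 3 after rescaling. Galnt6, which starts O-glycans, was higher (1.04), and the Agr2 paralog Agr3 (−1.47) and Galnt3 (−1.03) were lower. Of 15 genes of granule exocytosis, 1 was higher and 3 lower, with the purine receptor P2ry2 at 0.73 and Unc13b at −0.67. After rescaling 1 was lower. The actin-severing Scin was above saline with HDM + Dex (1.94, adjusted p = 0.0124).
Of 10 other mucins and goblet products tested, 2 were higher and 3 lower after HDM. Pigr, the receptor that carries IgA into secretions, was higher by 2.81 (adjusted p = 8.88e-05) and Itln1 by 1.56 (adjusted p = 0.00702). Both were also above saline with HDM + Dex, by 3.27 and 2.06. Of 10 genes of airway surface liquid transport other than Slc26a4, none was higher and 3 were lower, with the sodium channel subunit Scnn1b lowest in p (−1.32, adjusted p = 0.00293), and 1 higher and 2 lower after rescaling.
Between HDM + Dex and HDM no gene of these 6 lists passed, as deposited. In aged vs. adult, Gcnt1, a glycan-branching enzyme, was higher (0.99, adjusted p = 0.0457).

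Markers of the cells around the goblet cells moved with the groups. Scgb1a1, the defining secretoglobin of club cells, averaged 4635 ± 594 CPM in saline, 1046 ± 725 CPM after HDM and 2265 ± 1320 CPM with Dex (SD, n = 5, 7 and 7). Another club cell secretoglobin, Scgb3a2, averaged 188 CPM in saline, 31.8 after HDM and 91.7 CPM with Dex. Of 8 club cell markers 7 were lower after HDM and none was higher, and of 11 ciliated cell markers 11 were lower. Of all genes tested, 21.2% were lower and 4.04% higher. The mean log2(CPM + 1) of the club cell list was 7.67 to 8.14 in saline and 5.06 to 7.30 after HDM, and that of the ciliated list 4.14 to 4.61 and 1.99 to 3.89. Between the 2 groups, Clca1, Slc26a4, Fcgbp and Muc5ac were thus higher after HDM and these lists were lower. Among the HDM samples Clca1 and Muc5ac had no single relation to these lists. Replicate 6 was highest in both lists and in both genes, and replicate 3 was lowest in all of them. Other samples went the opposite way for the club cell list. Replicate 5 had 315 CPM of Clca1, 141 CPM of Muc5ac and a club cell list mean of 5.73. For replicate 7 these were 22.5 CPM, 26.2 CPM and 6.97. The relation within the group was not tested. In Slc26a4 and Fcgbp, replicate 6 was not the highest and replicate 3 not the lowest.
Large airway and gland markers differed between HDM + Dex and HDM. Their mean log2(CPM + 1) was 3.19 ± 0.447 in saline, 2.55 ± 0.681 after HDM and 3.38 ± 0.306 with HDM + Dex, and HDM + Dex exceeded HDM by 0.83 (exact permutation test, p = 0.00466; adjusted p = 0.0210). Neither HDM (exact permutation test, p = 0.0934; adjusted p = 0.133) nor HDM + Dex (p = 0.384; adjusted p = 0.426) passed against saline. Ciliated markers exceeded HDM by 1.11 (exact permutation test, adjusted p = 0.0210), with 6 of 11 genes higher, against 0.750% of all genes. Without HDM replicate 3 and HDM + Dex replicate 7, 0 of the 11 were higher, against 0.0338% of all genes. The median log2 fold change of the 11 genes was 1.12 with these samples and 0.95 without them. Bpifa1, a secreted airway defense protein of this list, averaged 49.7, 5.43 and 26.7 CPM in saline, HDM and HDM + Dex samples, and lactoferrin (Ltf) had medians of 21.1, 23.8 and 24.2 CPM. Foxj1, the regulator of ciliated cells, averaged 43.6, 25.2 and 42.1 CPM. HDM replicate 3 had the lowest large airway score, 1.17, and the basal cell keratin Krt5 was at the constant in 6 of 7 HDM samples.
With the large airway score as a covariate, Clca1 in HDM vs. saline was 7.32 (adjusted p = 1.15e-05), and Slc26a4, Fcgbp, Muc5ac and Tff2 were also called. Of all genes, 1.71% were higher and 5.64% lower in that fit. In HDM + Dex vs. HDM, the covariate brought Clca1 from 1.62 to 0.09 (adjusted p = 0.987) and Muc5b from 1.29 to −0.15 (adjusted p = 0.941). How much large airway a lobe held has no measure other than these markers, and its part in the HDM + Dex values was not tested. The score itself differed between HDM + Dex and HDM, and it holds Bpifa1, which the study reports as altered by HDM and by Dex. The covariate can thus remove a difference due to treatment as well as one of sampling, and these cannot be told apart.
Of 9 markers of gastric and intestinal mucous cells, 4 were in the table and 1, Muc6, was tested, at 18.3 to 94.4 CPM with HDM + Dex and 19.9 to 68.0 CPM in saline. Muc6 did not pass in any of the 4 comparisons, and Tff1 was at the constant in every naïve sample.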

How the data were processed

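Lung RNA of 24 mice in the 4 groups given by the sample labels was analysed. By the methods of the study, stranded mRNA libraries were read from both ends and processed with the Picard-STAR-limma pipeline, and the submitters' notes also name FastQC, DESeq2 and the build mm9. The authors deposited CPM in which every value carries an added 0.0001. Coordinates were compared with GENCODE annotation of GRCm38: 23142 of 23891 symbols had the same start. The CPM were not converted to counts, since 80.5% to 85.3% of low values were whole multiples (within 0.05) of the spacing taken as 1 read.

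limma 3.58.1 (R 4.3.3) was run on log2(CPM + 1) for 17744 genes averaging 1 CPM or more, with trended eBayes and a Benjamini-Hochberg threshold of 0.05. One fit held the 19 aged samples and one the 10 naïve samples. Single values were tested by exact permutation of group means, two-sided (Python 3.11.15, scipy 1.17.1). The limma script was first run on simulated data with known changes. CPM per kb used exonic length from the annotation. Sex was read from Xist and Ddx3y. The alternatives were other pseudocounts, filters, scalings, thresholds, samples in the fit, variance models and covariates, a replicate block, and leaving out each sample. Leaving out HDM replicate 3 together with HDM + Dex replicate 7, and rescaling combined with the 7SL covariate, were added after seeing the data.

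Named were the 9 genes, up to 3 called genes with the lowest p per list and comparison, 5 genes with the highest r to the mean of the standardized members, and the markers Bpifa1, Scgb1a1, Scgb3a2, Foxj1, Krt5 and Ltf. The members and the 10 other lists were chosen with earlier results of these data known. Same-numbered samples did not deviate together, and the numbers were not taken as pairs.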

Additional observations from a re-analysis of the deposited data

Results flagged for a closer look

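HDM + Dex replicate 7 lay far below the other 6 samples of its group in Clca1 (28.06 CPM), Fcgbp (10.69 CPM) and Tff2 (1.312 CPM), by Dixon's criterion for a single extreme sample. Over the 36 combinations of gene and group examined, 3 met it, and chance gives about 1.8 at this level. The 3 values come from 1 library, in which all 9 genes were the lowest of the group, so that they are not 3 independent events.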

How the results depend on the processing

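The count of goblet cell mucus genes called for HDM vs. saline was 4 in every case of leaving out one sample, 4 to 5 under other pseudocounts, filters, scalings, variance models, thresholds and the covariates of sex and large airway score, and 2 with the 7SL share as a covariate. For HDM + Dex vs. HDM it was 0 in all of these except sample quality weights, which called 1 gene, Muc5b (1.35, adjusted p = 0.0477), against 2.37% of all genes higher and 1.08% lower. For HDM + Dex vs. saline the count of 4 became 3 at an adjusted p under 0.01 (Muc5ac lost), 5 under 7 alternatives (Tff2 added, the replicate block among them), 8 with sample quality weights, 2 with the 7SL covariate and 7 without HDM replicate 3 and HDM + Dex replicate 7, and leaving out one sample gave 3 to 6. Sample quality weights there called 2.68% of all genes higher and 28.2% lower, against 0.445% and 1.44% in the main fit. For aged vs. adult the 1 gene became 0 with all 24 samples in the fit or with sex as a covariate. Exact tests of single means, which passed 2 genes for HDM + Dex vs. HDM at an unadjusted p under 0.05 (Clca1 and Muc5b), passed 1 on the log2 scale (Muc5b) and 1 by ranks (Tff2). The cause of these changes was not tested.

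Directions turned for genes that were not called. Muc5b in HDM vs. saline was 0.3911 with the 7SL covariate, 0.7294 with the large airway score, and 0.07383 without HDM replicate 3, alone or with HDM + Dex replicate 7; over samples left out it ran from −0.6506 to 0.07383. Spdef in that comparison ran from −0.00153 to 0.3028, negative without HDM replicate 6. In HDM + Dex vs. HDM, the large airway score gave −0.06518 for Agr2, −1.123 for Muc5ac, −0.1491 for Muc5b and −0.2932 for Tff2. Slc26a4 was −0.009491 with sample quality weights and −0.1798 to 0.3267 with one sample left out. Agr2 in aged vs. adult was 0.03222 with a pseudocount of 0.1, 0.2282 with the large airway score, and −0.2882 to 0.06558 with one sample left out.

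A replicate block gave 4, 0, 5 and 1 of these genes in HDM vs. saline, HDM + Dex vs. HDM, HDM + Dex vs. saline and aged vs. adult, and 5644, 8, 898 and 168 of all genes in place of 4482, 171, 335 and 116. Same-numbered samples correlated above 0.1 in 1 of 5, 2 of 7, 0 of 5 and 0 of 5 pairs, and 1, 0, 0 and 0 samples matched their own number best. Over the other alternatives, counts of all genes ran from 1304 (large airway score) to 7876 (sample quality weights) for HDM vs. saline, from 0 (large airway score) to 611 (sample quality weights) for HDM + Dex vs. HDM, from 34 (7SL covariate) to 5471 (sample quality weights) for HDM + Dex vs. saline, and from 65 (all 24 samples) to 784 (sample quality weights) for aged vs. adult. Depth limits what can be said of Foxa3, which lay near 3 reads in many samples.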
